A study of Homo sapiens with 2 samples.

Results

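The genes described here are the EGR, FOS and JUN immediate-early transcription factors, measured in K562 cells with a miR-34a mimic or a control mimic. The members were taken by name: EGR1, EGR2 and EGR3 of the EGR family, and FOS, FOSB, FOSL1, FOSL2, JUN, JUNB and JUND, whose proteins form the AP-1 factor. Every probe set that the array's annotation ties to one of these symbols was used. Of the 10 genes, 9 had at least 1 probe set, 21 in all, and EGR2 was not analysed here. By comparison, the annotation gave probe sets for 19775 genes in the whole series, and 12774 of them were expressed, meaning a mean signal at or above the median of all probe sets.

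K562 is an established human erythroleukemia line, grown in suspension, that carries the BCR-ABL fusion kinase. One culture received 3 µg of miR-34a mimic by nucleofection, an electrical transfer of nucleic acid, and the other 3 µg of a control mimic without homology to human genes. RNA was taken 24 hours later from both and read on Affymetrix expression arrays. Each group is 1 array of 1 culture, so every difference below is a size without a p-value or a replicate error. The precision is limited by the number of arrays.

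Immediate-early genes are switched on within minutes of a signal, without new protein synthesis. The ERK and other MAP kinases activate the factors SRF, ELK1 and CREB, which already sit on the promoters of these genes. EGR proteins are zinc finger factors that bind GC-rich sites and are held in check by the corepressors NAB1 and NAB2. AP-1 is a dimer of basic leucine zipper proteins: JUN proteins pair with each other or with FOS proteins, while FOS proteins need a JUN partner. FOSL1, the gene of FRA-1, and the kinase gene MAP2K1 (MEK1) have been reported as direct targets of miR-34a.

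The labels name the mimic as miR-34a, and the sequence of its main arm is shown because the seed governs which transcripts it pairs with. In RefSeq (GRCh38.p14) this arm lies at chr1:9151735-9151756 on the minus strand. Capitals mark the seed, bases 2 to 8 from the 5′ end, whose perfect match in a target reads CACUGCC.
hsa-miR-34a-5p: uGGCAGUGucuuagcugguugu

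Both arrays had close scales. Their median signals were 39.5 for the control and 40.1 for miR-34a, and the log2 ratios of 18 probe sets for spiked-in RNA averaged 0.014 with an SD of 0.068. Background was set at 75.4, the highest signal of 27 probe sets for bacterial transcripts, and a lower signal is called within background. The ratio of 3′ to 5′ signal, which grows as RNA degrades, was 3.07 and 3.53 for GAPDH on the control and miR-34a arrays and 4.30 and 4.54 for ACTB. The erythroid identity of K562 was visible on both arrays, with GATA1 at 1186.8 and 1395.2 and HBE1 at 10515.7 and 11843.1. Of 8 measured erythroid markers 7 were higher with miR-34a, as were 4 of 8 megakaryocyte, 3 of 5 expressed myeloid, 3 of 5 lymphoid and 2 of 6 stromal and epithelial ones. The summed signal of these lists went from 24424 to 29231, 685.7 to 1051.6, 939.2 to 1141.2, 1532.2 to 989.3 and 8717 to 8434. Markers past 2-fold were ALAS2 at 1.88, SLC4A1 at 1.17, TUBB1 at 1.62, SPI1 at 1.07 and AIF1 at 1.44, all but TUBB1 from control signals within background, and CD3D at -1.41 and EPCAM at -1.12. Of markers of other cell types, 4 of 8 megakaryocyte, 3 of 8 myeloid, 4 of 7 lymphoid and 4 of 10 stromal and epithelial genes with a probe set were within background on both arrays. Others were not, such as LYZ, CD3D, COL1A2 and EPCAM. The part of these markers and of RNA quality in the results below was not tested.

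The members did not move as one group. With miR-34a, EGR1 had the highest ratio of them and FOSL1 the lowest, JUNB was higher by a smaller step, and JUN, JUND and FOSL2 differed little. EGR3, FOS and FOSB gave signals within background in both cultures. In all 6 members, 1 EGR gene and 5 AP-1 genes, were expressed, with 13 of the 21 probe sets. Only 10 probe sets read above background on both arrays, 10 were within background on both, and 1 crossed it.

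**Figure D1:**
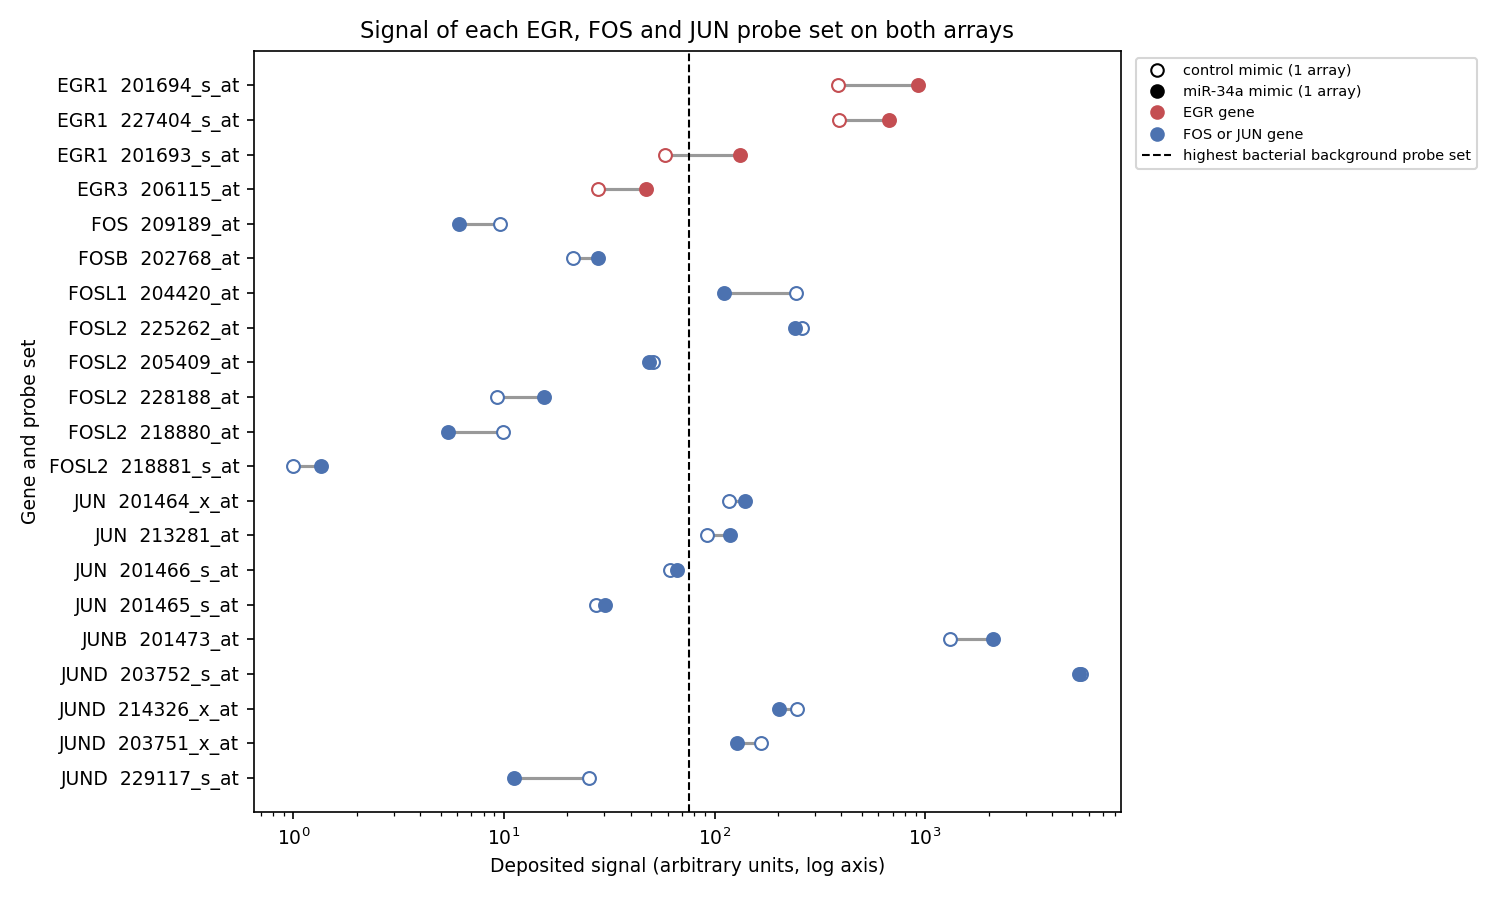
Deposited signal (arbitrary units, log axis) of each of the 21 probe sets, with the control mimic array as open and the miR-34a mimic array as filled circles, red for EGR and blue for FOS and JUN genes. The dashed line is the highest bacterial background signal, 75.4. All 3 EGR1 lines run to the right, the FOSL1 line runs to the left, and the probe sets of FOS, FOSB and EGR3 lie left of the dashed line.

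EGR1, the best known of the EGR factors and a standard readout of ERK signalling, was higher with miR-34a on each of its 3 probe sets. The brightest, by its mean level over both arrays, read 384.1 with the control mimic and 927.6 with miR-34a, a signal ratio of 2.41. The second read 391.0 and 676.5, a signal ratio of 1.73. The third read 58.1 with the control mimic, within background, and 132.4 with miR-34a. The miR-34a signal thus exceeded the control signal throughout, by sizes that differed between probe sets.

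Ratios below are on the scale log2(signal + 14.9), with the median of all expressed genes set to 0, which understates the change of dim genes. On it the 3 EGR1 probe sets gave 1.23, 0.76 and 1.004, with an SD of 0.24. This is as large as the spread between probe sets of a gene over the whole array, an SD of 0.24 pooled over 5494 genes with at least 2 expressed probe sets. That spread covers differences between probe sets, not between cultures. By its brightest probe set EGR1 was the 26th highest of 12774 expressed genes. Among the brightest 3194 expressed genes, to which it belongs, 0.219% were at least 2-fold higher.

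EGR3, a related factor that calcium signals induce in lymphocytes, had a single probe set with signals of 27.8 and 47.4. Both values were within background, and its log2 ratio of 0.54 is not read as a change. EGR4 is no member but the last of the family, and its brightest probe set read 35.8 and 59.7, also within background. The measured higher level in the EGR family therefore rests on EGR1 alone.

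Of the FOS genes, FOSL1 stood out. FOSL1 encodes FRA-1, an AP-1 subunit that lacks the strong activation domain of FOS and is often high in cells with active ERK signalling. Its single probe set read 243.8 with the control mimic and 110.5 with miR-34a, 2.21-fold lower in signal and above background on both arrays. The log2 ratio was -1.05, the 57th lowest of the 12774 expressed genes. Among the 3193 expressed genes with mean signals from about 84.4 to 204.9, where it lay, 0.407% of genes were at least 2-fold lower. FOSL1 lay close to the 2-fold line, and with 4 times the pseudocount its log2 ratio was -0.84. No second probe set was there to check it.

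FOSL2, the gene of FRA-2, differed little from the control. Its brightest probe set read 260.7 and 240.8, a log2 ratio of -0.12. The other 4 probe sets read at most 51.0 on either array and gave both signs, from -0.29 to 0.32. FOSL1 was lower than FOSL2 by 0.94 in log2 ratio, more than the 0.34 that is 1 SD of a difference between 2 genes given the spread between probe sets.

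FOS, the founding partner of JUN, and FOSB, which is induced with it, were near the bottom of the signal range. FOS read 9.55 with the control mimic and 6.11 with miR-34a, and FOSB read 21.1 and 27.9. All 4 signals were within background, so neither gene is read as changed. The array therefore measured the FOS side of AP-1 through FOSL1 and FOSL2.

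Of the JUN genes, JUNB was the one with a sizeable difference. JUNB, which often acts as a weaker or opposing counterpart of JUN, read 1306.9 with the control mimic and 2100.3 with miR-34a. The signal ratio was 1.61 and the log2 ratio 0.67, the 286th highest of all expressed genes, on its only probe set. It did not reach 2-fold under any setting tried, where it lay between 0.65 and 0.70.

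JUN, the subunit that the kinase JNK activates, was slightly higher on all 4 probe sets. The brightest read 116.6 and 138.7, another 91.8 and 117.7, and the remaining pair, within background on both arrays, 61.7 and 66.2, and 27.4 and 30.2. The log2 ratios ran from 0.073 to 0.30, a size near the spread between probe sets.

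JUND, the JUN gene that most resting cells express steadily, was lower on all 4 probe sets but by amounts that differed between them. The brightest read 5506.7 with the control mimic and 5370.2 with miR-34a, a log2 ratio of -0.045. The next probe sets read 246.3 and 201.2, and 165.7 and 128.3, with log2 ratios of -0.28 and -0.34. The dimmest read 25.4 and 11.2, within background. These probe sets read the same gene in the same RNA, so the sizes between them cannot be assigned to the culture.

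**Figure D2:**
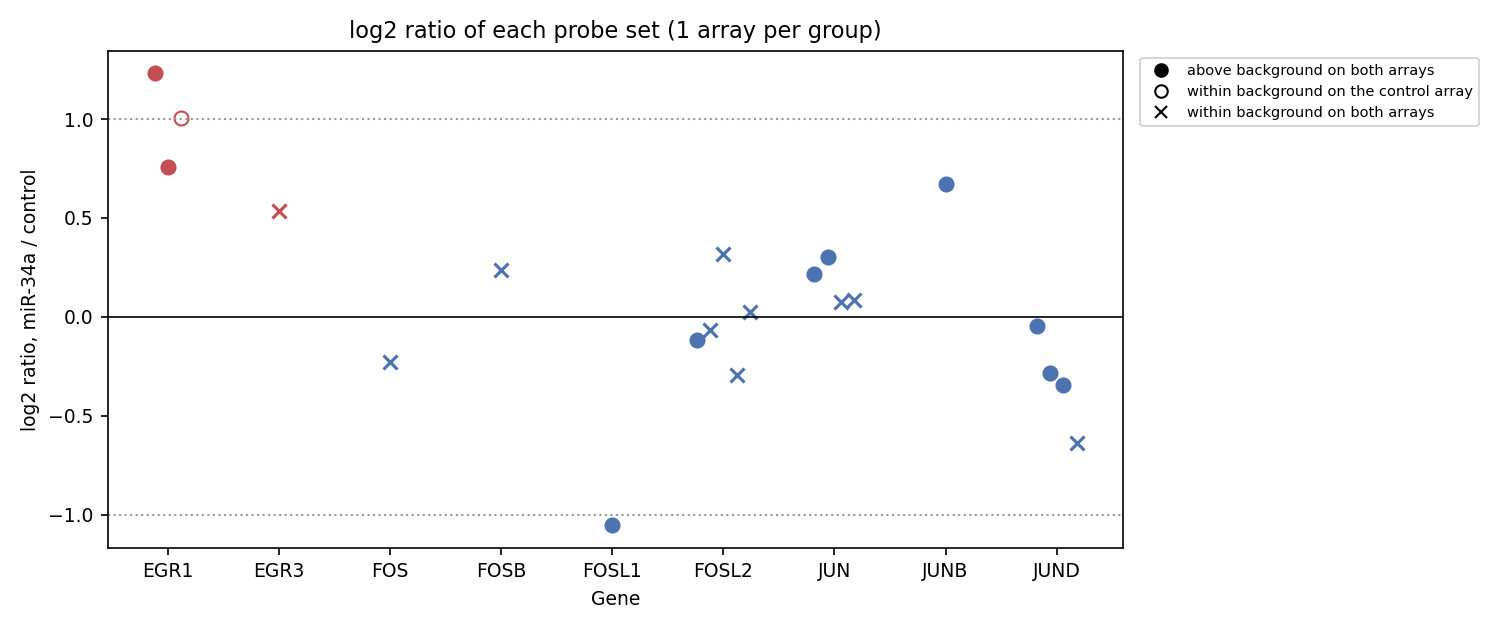
log2 ratio of miR-34a over control for each probe set (1 array per group, no error bars), with filled circles for probe sets above background on both arrays, an open circle for the EGR1 probe set within background on the control array, and crosses for those within background on both. Dotted lines mark 2-fold. EGR1 lies between 0.76 and 1.23, FOSL1 at -1.05 and JUNB at 0.67, while the JUN and JUND probe sets above background lie between -0.34 and 0.30.

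Set in order, the log2 ratios of the expressed members were 1.23 for EGR1, 0.67 for JUNB, 0.22 for JUN, -0.045 for JUND, -0.12 for FOSL2 and -1.05 for FOSL1. JUN and JUND, 0.26 apart, and JUND and FOSL2, 0.072 apart, differed by less than 0.34, the SD expected of such a difference from probe sets alone. The steps from EGR1 to JUNB, 0.56, from JUNB to JUN, 0.45, and from FOSL2 to FOSL1 exceeded it. With the mean over each gene's expressed probe sets in place of the brightest, the step from EGR1 to JUNB was 0.33. JUN and JUND were then 0.42 apart, and JUND lay below FOSL2, at -0.22 against -0.085. The 0.34 is for 1 probe set per gene, so steps between means are not read against it. None of these steps was tested against differences between cultures.

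The contrast of the families was EGR1 at 1.23 against a median of -0.045 over the 5 expressed AP-1 genes. EGR1 was above each of them, by 2.28 against FOSL1, 1.35 against FOSL2, 1.28 against JUND, 1.02 against JUN and 0.56 against JUNB, or 0.33 with probe sets averaged. The AP-1 genes were themselves spread, with JUNB higher and FOSL1 lower, each on 1 probe set. JUN, JUND and FOSL2 lay nearer to 0, at 0.22, -0.045 and -0.12. JUNB thus lay nearer to EGR1 than to FOSL1, from which it differed by 1.72.

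Of the 6 expressed members, 1 was higher by 2-fold or more and 1 was lower by 2-fold or more. In all expressed genes 1.14% passed 2-fold in either direction, 0.595% upward and 0.548% downward. At 1.5-fold, 2 members, EGR1 and JUNB, were higher, against 3.28% of all expressed genes. With 6 genes chosen with results of these arrays known, the shares are a description.

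**Figure D3:**
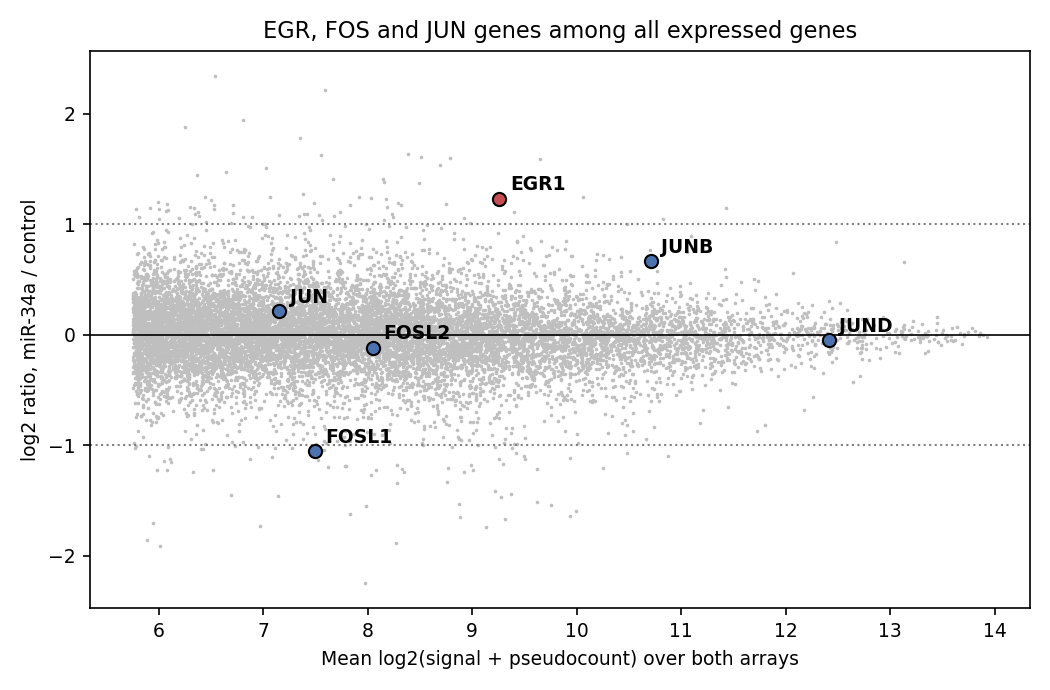
Mean log2(signal + 14.9) over both arrays (x axis) and log2 ratio of miR-34a over control (y axis) for the 12774 expressed genes (grey), with EGR1 in red and the 5 AP-1 genes in blue. Dotted lines mark 2-fold. EGR1, at 1.23, is above the bulk of genes of its level and FOSL1, at -1.05, below it, whereas JUN, JUND and FOSL2 lie within the grey band.

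The promoters of the members were searched for sites of the factors upstream of them. RefSeq promoter sequences (GRCh38.p14) matched 8 of the 10 members and not EGR3 or FOSL1, and the 250 bases before each start were searched on both strands. The motifs were the CArG box that SRF binds, the cAMP response element TGACGTCA and its core TGACG, the AP-1 sites TGANTCA and TGACNTCA, and the EGR site GCGNGGGCG. The core is part of the whole element, and TGACNTCA includes TGACGTCA. In 35114 promoters of that length these stood in 1.16%, 1.65%, 21.2%, 6.57%, 6.87% and 8.41%.

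The members with the higher levels, EGR1 and JUNB, and JUN, whose own promoter holds an AP-1 site, are printed as the upstream 250 bases with the matched motifs in capitals. EGR1 lies at chr5:138465229-138465478 on the plus strand, JUNB at chr19:12791236-12791485 on the plus strand and JUN at chr1:58784048-58784297 on the minus strand.
EGR1: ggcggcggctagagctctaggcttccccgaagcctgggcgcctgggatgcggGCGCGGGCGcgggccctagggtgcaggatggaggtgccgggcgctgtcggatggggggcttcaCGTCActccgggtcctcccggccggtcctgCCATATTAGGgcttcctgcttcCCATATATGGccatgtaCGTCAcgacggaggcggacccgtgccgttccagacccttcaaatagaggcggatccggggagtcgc
JUNB: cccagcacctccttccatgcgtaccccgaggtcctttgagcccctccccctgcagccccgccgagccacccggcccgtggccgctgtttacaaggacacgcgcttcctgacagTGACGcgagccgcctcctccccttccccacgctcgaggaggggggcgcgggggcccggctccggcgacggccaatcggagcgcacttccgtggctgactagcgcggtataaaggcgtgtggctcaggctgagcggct
JUN: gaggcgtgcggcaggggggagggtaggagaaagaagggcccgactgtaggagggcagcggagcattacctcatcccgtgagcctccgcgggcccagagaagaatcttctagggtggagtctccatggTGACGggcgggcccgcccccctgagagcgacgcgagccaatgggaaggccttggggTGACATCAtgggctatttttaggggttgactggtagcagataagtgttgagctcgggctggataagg

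EGR1 held 2 CArG boxes, CCATATTAGG and CCATATATGG, which began 105 and 83 bases before the start, with a TGACG core on either side and a match to the EGR site farther upstream. EGR2, not analysed on the arrays, held CCATATATGG 71 bases before 1 of its 3 starts, also with a TGACG core on either side. The JUNB stretch held 1 TGACG core, 137 bases before the start, and no CArG box. The JUN stretch held the AP-1 site TGACATCA 67 bases before the start. JUND held the whole element TGACGTCA 200 bases before its start, which is also a match to the AP-1 site TGACNTCA. All 8 matched members had a TGACG core in at least 1 promoter, EGR2 in 1 of its 3, against 34.8% of 10273 expressed genes counted the same way. A match of letters is a description, and a motif outside the window is not seen.

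The genes around these factors were read from lists chosen by role. Their counts of higher and lower genes keep expressed genes within background, since the cut, a signal of about 39.0, lies under 75.4. The first list was the EGR cofactors. NAB1 and NAB2, the corepressors of EGR1, of which it can induce the second, read 315.3 and 401.9, and 385.9 and 486.2. Their log2 ratios were 0.33, with the second expressed probe set of NAB1 at 0.45, and 0.31. Both genes lay above 0 by about the SD of the log2 ratios over all expressed genes, 0.31, so neither is read as a change. WT1, a zinc finger factor with a similar binding site, had -0.15 and, on its second probe set, -0.74. With EGR4, which was within background on both arrays, the list of 4 had 3 higher and 1 lower gene, none past 2-fold.

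Other basic leucine zipper genes, some of whose proteins can pair with JUN or FOS proteins, were read next. Their median was 0.080 over 15 expressed of 20 listed, with 11 higher and 4 lower. Over all expressed genes the median is 0 by construction. MAFF, a small MAF protein gene, was the only one past 2-fold, from 111.6 to 255.8, with a log2 ratio of 1.09. Its second probe set gave -0.32, and the mean of both was 0.39. BACH2, a repressor that pairs with small MAF proteins, had 0.44 and, on its second probe set, 0.098. ATF3, a stress-induced partner of JUN, had 0.43, although another probe set of ATF3 gave -0.22. BATF3, at -0.36 with its miR-34a signal within background, and NFE2L1, at -0.33 over 3 probe sets with an SD of 0.051, were lowest.

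Upstream of the members, the kinases and promoter-bound factors were mixed. Of 12 expressed MAP kinase pathway genes, 7 were higher and 5 lower, with a median of 0.066. ARAF, a RAF family kinase, went from 478.2 to 181.0, a log2 ratio of -1.34 on its single expressed probe set. MAP2K1 went from 564.2 to 291.9, at -0.93. MAPK3, the gene of ERK1, had 0.32 and the kinase gene RPS6KA3 0.14. EGR1 RNA was thus higher and FOSL1 RNA lower in the culture in which the RNA of ARAF and MAP2K1 was lower.

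Of 9 expressed genes for SRF, ELK and CREB factors and their coactivators, 5 were higher and 4 lower, with a median of 0.015. SRF had 0.22 on its brighter and 0.21 on its dimmer probe set, and ELK1 had 0.14 on both. ELK4 had 0.39 on its brightest probe set, with others from -0.30 to 0.45. ELK3, which represses in its resting state, had -1.04 from 105.5 to 44.2, the latter within background, and CREB1 had -0.36 with other probe sets up to 0.35.

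Other immediate-early genes lay on both sides of the control. Of 31 listed, 23 were expressed, 13 of them higher and 10 lower, with a median of 0.073 and 0 past 2-fold. ZFP36L1, an mRNA decay factor, was highest at 0.58, from 159.1 to 247.1, followed by the nuclear receptor gene NR4A3 at 0.56 from a control signal within background. MYC was lowest at -0.77, from 1813.7 to 1066.2, and ZFP36L2 next at -0.47 on its brightest probe set. The expressed probe sets of ZFP36L2 reached up to 0.043, and their mean was -0.23. Stress from handling can induce the same genes, and its part here was not tested. Of 11 listed heat shock genes 8 were measured, and HSPA1A and HSPA1B, the most inducible ones, and HSPA8 were not analysed here. The 8 lay between -0.23 for HSPE1 and 0.067 for HSP90AA1, with DNAJB1 at -0.20, HSPA5 at 0.051 and a median of -0.058.

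Genes listed as negative regulators of the same pathway lay on both sides of the control. Of 8 expressed genes listed as MAPK feedback inhibitors, 2 were higher and 6 lower, with a median of -0.11. The phosphatase gene DUSP7 had -0.68 and the Sprouty gene SPRY4 -0.29, against 0.43 for IER3 and 0.15 for SPRED2. IER3 is also on the list of other immediate-early genes and is not a settled inhibitor, so the 2 higher genes depend on its listing. The 5 genes for ubiquitin ligases and their subunits that act on JUN lay between -0.16 for CUL4A and 0.087 for ITCH, with FBXW7 at -0.12 and COP1 at 0.082. Expressed probe sets of the same gene gave both signs, from -0.23 to 0.15 for CUL4A and -0.17 to 0.12 for ITCH. Those of FBXW7 ran from -0.12 to 0.29 and those of COP1 from -0.087 to 0.082.

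Genes that textbooks give as bound by these factors spread both ways. Of 12 expressed AP-1 target genes, 8 were higher and 4 lower, with a median of 0.091 and 0 past 2-fold. The metallothionein gene MT2A had 0.75 and the adhesion receptor gene CD44 0.63, with the 6 expressed probe sets of CD44 between -0.083 and 0.85. The intermediate filament gene VIM had -0.82 and the protease gene PLAU -0.56, its miR-34a signal within background. Of 10 expressed EGR1 target genes, 7 were higher and 3 lower, with a median of 0.082. The growth factor gene PDGFB was highest at 0.86, from 109.5 to 213.0, and the growth arrest gene GADD45A had 0.34. The fibronectin gene FN1 was lowest at -0.81, with its 5 expressed probe sets between -0.84 and -0.20, and the adhesion gene ICAM1 had -0.13. Without probe sets of the classes _s_at, _x_at and _a_at, which can pair with several transcripts, the median of the EGR1 targets was 0.33. That median is over fewer genes, since PDGFB, FN1 and ICAM1 among others then had no value.

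**Figure D4:**
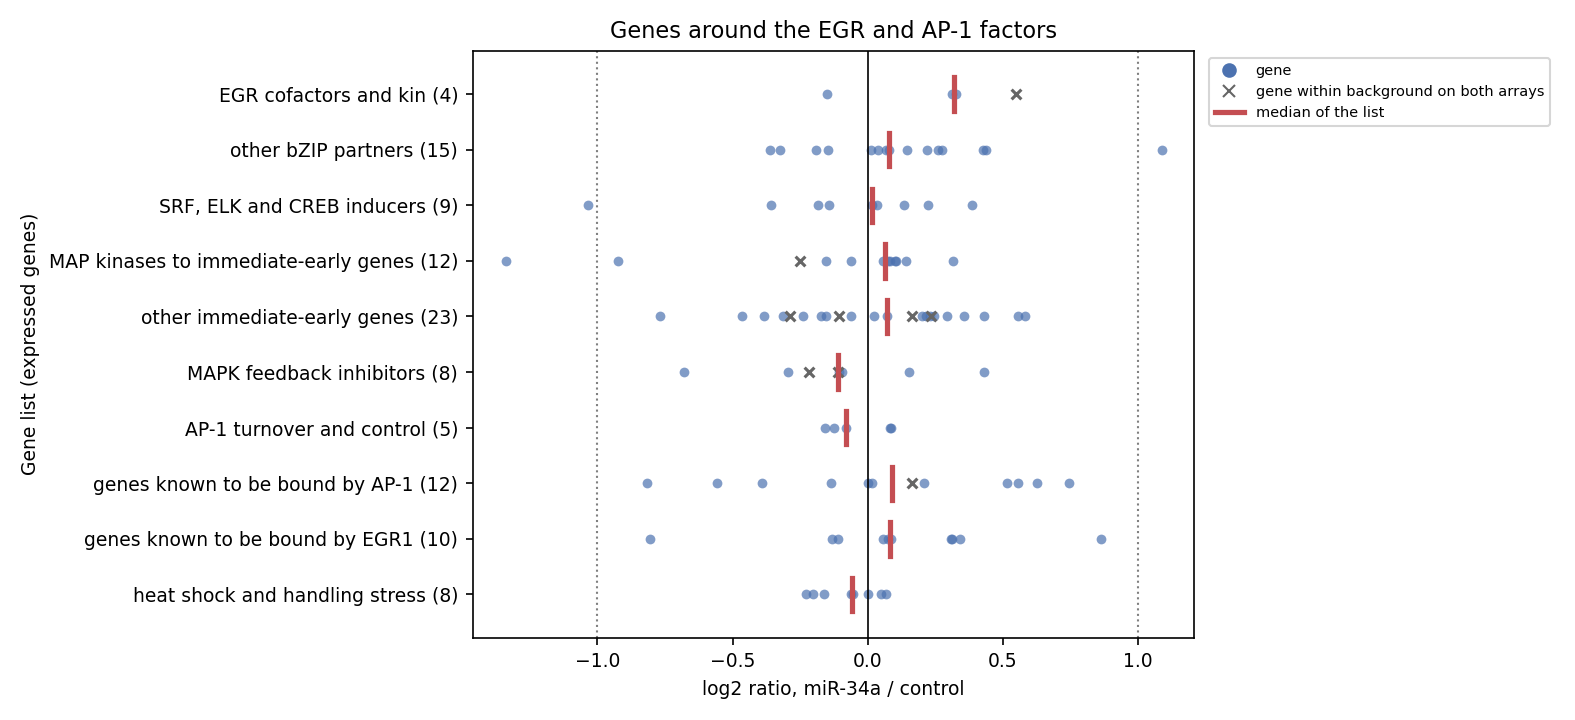
log2 ratio of miR-34a over control (x axis) for the expressed genes of each list around the EGR and AP-1 factors (number of expressed genes in brackets), with crosses for genes within background on both arrays and a red bar at each list's median. Dotted lines mark 2-fold. Single genes reach 1.09 (MAFF) and -1.34 (ARAF), whereas the medians lie between -0.11 and 0.32.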

How the data were processed

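The values are the authors' deposited intensity per probe set, linear and in arbitrary units, with a lowest value of 1. How they were summarised, background-corrected and scaled is not given in the sources used here. There were 0 columns of other samples. Of 54613 probe sets other than controls, 41091 had 1 gene symbol in the platform annotation and only these were used. No probe set shared a member with another gene.

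From the deposited intensity values, log2(intensity + 14.9) was taken, with the 25th percentile of both arrays' values as pseudocount. A probe set was expressed at a mean level at or above the median, a signal of about 39.0. A gene took its brightest expressed probe set, and the median log2 ratio of 12774 expressed genes, 0.0090, was subtracted. With 1 array per group there was no test, and genes were counted at 2-fold. The calculation was tested on simulated data.

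The named genes are all members with every probe set, the 2 highest and 2 lowest of each pathway list, those past 2-fold in it, and NAB1, NAB2, EGR4, SRF, ELK1, ATF3, MAPK3 and MAP2K1. Cell type markers lay outside this rule and were named after their values were seen. Members and lists were chosen with earlier results of these data known. Alternatives changed the pseudocount, filter, centring, normalization (by quantile or by loess, span 0.3), probe sets per gene and fold threshold. Python 3.11.15, NumPy 2.4.6, pandas 2.3.3, statsmodels 0.14.6 and matplotlib 3.10.9 were used.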

Additional observations from a re-analysis of the deposited data

How the results depend on the processing

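EGR1 was at least 2-fold higher under each of the 10 settings, the main one included, that gave it a value, between 1.004 and 1.25. Apart from the mean over probe sets, these settings all read the same probe set, so they do not check it against the others. The second probe set gave 0.76, under 2-fold, and the mean was 0.998 with the main centring. All its probe sets are of the _s_at class, so leaving out the _s_at, _x_at and _a_at classes gave no value for EGR1 or the EGR genes. FOSL1 was lower under all 11 settings, between -1.12 and -0.84, and past 2-fold under 10. The direction of JUN, JUNB, JUND and FOSL2 did not change under any setting that gave a value. Averaging probe sets changed the steps between neighbouring members and the order of JUND and FOSL2, as given with their order. With no filter, which adds EGR3, the EGR median was 0.88. The count of members past 2-fold was 1 with 4 times the pseudocount, where FOSL1 dropped out, and 1 without those probe set classes, where EGR1 had no value. The count over all genes, 146, was 69 with 4 times the pseudocount, 88 with the filter at the 75th percentile, 421 with no filter and 803 at 1.5-fold. Of 100 values for the list medians under alternatives, 99 moved by less than 0.24, the spread between probe sets. The EGR1 targets moved to 0.33 without those classes, over fewer genes. Of 446 values for single genes, 440 moved by less. The rest were ATF3, CUL4A, ELK3, FBXW7, MAFF and WT1, under 1 setting each. No paired analysis was possible because each group has 1 array. Signals within background limit what can be read from EGR3, FOS and FOSB.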

Other observations

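Expressed genes other than the members were also sorted by the motifs in the 250 bases before their RefSeq starts, and the medians of the sorted groups lay close together. The 148 genes with a CArG box had a median log2 ratio of 0.031, with quartiles of -0.15 and 0.18, and the 10120 genes without one had -0.0037. With so few genes and 1.08% of the others past 2-fold, no count is read from this group. The 652 genes with the AP-1 site TGANTCA had a median of 0.018, against -0.0046 for the 9616 without it. The 1701 genes with the EGR site GCGNGGGCG had -0.0067, against -0.0025 for the 8567 without it, and 0.412% and 0.549% of these were at least 2-fold higher. The 802 genes with TGACNTCA had 0.012, and 0.249% of them were past 2-fold upward and 1.12% downward, 2 and 9 genes. Of the 9466 genes without it, with a median of -0.0040, 0.549% and 0.497% were. These values describe a short window and 1 pair of arrays, and no test was made.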
